A study of Mus musculus with 11 samples.

Results

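The haematopoietic niche factors of leptin receptor stroma are 9 genes through which marrow stromal cells act on blood cells and on their own lineage. They were taken from the table of counts by symbol, and all 9 were found among its 24718 genes. The set holds the chemokine Cxcl12, the growth factors and cytokines Kitl, Csf1, Il7 and Il15, the adhesion molecule Vcam1, the receptor Lepr, and the secreted factors Ptn and Clec11a. All 9 were among the 17838 genes tested.

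RNA was sequenced in bulk from mesenchymal stem and progenitor cells sorted from mouse bone marrow by tdTomato, a red fluorescent protein. All mice were female and carried Lepr-Cre and LSL-tdTomato+/-, in which Cre recombinase made from the leptin receptor gene switches the reporter on. DOX4X mice (n = 4, aged 8 to 10 weeks) had 4 intravenous doses of doxorubicin at 5 mg/kg, with 1 week between doses. DOX1X mice (n = 3, young adult) had 1 intravenous dose at 10 mg/kg. PBS mice (n = 4, no age in the labels) had 4 intravenous injections of phosphate-buffered saline. All were killed 8 weeks after treatment. The mark is permanent once made, so a sorted cell need not express Lepr when it is collected, and Lepr is at once a gene of the set and the driver of the sort. No library without the Cre allele was analysed here, so any effect of the allele on Lepr is shared by every group. DOX1X and PBS mice also differ in the number of injections.

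Doxorubicin is an anthracycline that traps topoisomerase II on DNA and is toxic to dividing marrow. Perivascular stromal cells that express Lepr are a main source of Cxcl12, which holds haematopoietic stem cells and B cell progenitors in the marrow through the receptor Cxcr4, and of Kitl (stem cell factor), which maintains stem cells through the receptor Kit. Csf1 supports monocytes, macrophages and osteoclasts, Il7 supports early B cells and Il15 supports natural killer cells. Vcam1 binds the integrin of Itga4 and Itgb1 on blood cells. Ptn (pleiotrophin) is a heparin-binding growth factor with the receptors Ptprz1 and Sdc3, and Clec11a (osteolectin) promotes bone formation by the same stromal lineage through the integrin of Itga11 and Itgb1.

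Promoter sequence upstream of the start site is shown for the most abundant gene, Cxcl12, and for Ptn and Clec11a, the genes with the smallest p after 4 doses. The 250 bases come from RefSeq on GRCm38.p6, which holds a promoter for 6 of the 9 genes; the counts were made on GRCm39. Capitals mark any of 4 short motifs, searched on both strands: CCCNNGGG (bound by EBF factors), GTAAACA (forkhead factors), GGGCGG (the GC box) and TATAAA (the TATA box).
Cxcl12, chr6:117168285-117168534, plus strand: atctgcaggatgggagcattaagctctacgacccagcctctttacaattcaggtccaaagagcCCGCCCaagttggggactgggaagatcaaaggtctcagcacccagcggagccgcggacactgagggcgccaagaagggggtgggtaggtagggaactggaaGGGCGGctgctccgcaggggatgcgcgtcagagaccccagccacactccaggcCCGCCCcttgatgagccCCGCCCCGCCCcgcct
Ptn, chr6:36810180-36810429, minus strand: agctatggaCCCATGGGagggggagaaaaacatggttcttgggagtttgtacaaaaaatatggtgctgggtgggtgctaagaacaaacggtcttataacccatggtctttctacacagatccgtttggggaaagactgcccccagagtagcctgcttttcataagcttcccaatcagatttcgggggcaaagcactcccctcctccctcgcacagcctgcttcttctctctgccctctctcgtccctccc
Clec11a, chr7:44306960-44307209, minus strand: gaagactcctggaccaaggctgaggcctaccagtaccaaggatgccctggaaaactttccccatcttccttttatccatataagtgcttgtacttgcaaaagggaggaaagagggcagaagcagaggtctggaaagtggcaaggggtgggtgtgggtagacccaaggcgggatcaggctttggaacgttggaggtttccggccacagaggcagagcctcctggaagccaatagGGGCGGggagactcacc
The Cxcl12 window held 5 GC boxes, 2 of them sharing 1 base, the Clec11a window held 1, and the Ptn window held 1 EBF core and no GC box. Of the 6 genes with a promoter, only Kitl had a TATA box (12.4% of 32851 promoters have this motif), together with 3 GC boxes. Csf1 had 1 EBF core and 2 GC boxes. Il7, Il15 and Vcam1 had no promoter in that source and were not searched. Over all promoters, 32.7% held a GC box, 11.8% an EBF core and 3.17% the forkhead core, which none of the 6 genes had. These matches describe the letters in the window and say nothing of binding.

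Total counts were 31129352 to 36888310 in DOX4X, 33496356 to 42002065 in DOX1X and 29540422 to 42784036 in PBS. The 16 markers of Lepr stroma were all tested and summed to 73238 to 85538 CPM (counts of a gene per 1000000 counts of its library, scaled by TMM factors) in DOX4X, 73584 to 92647 in DOX1X and 80238 to 93402 in PBS. Most of that sum is Cxcl12, Lepr and Kitl, which are themselves in the set; the other 13 markers summed to 20617.8 to 22654.5 CPM in DOX4X, 20448.3 to 24914 in DOX1X and 20684 to 26326.5 in PBS. Markers of other marrow cells were also present, and none of those in the table was at 0 in every library of a group. The table held 12 of 13 erythroid, 13 of 14 monocyte and macrophage and 11 of 12 osteoblast markers, and all markers of the other lists. The sums were 233 to 948 CPM for neutrophils in DOX4X, 217 to 818 in DOX1X and 160.4 to 574 in PBS. For erythroid cells they were 349 to 831 CPM in DOX4X, 281 to 673 in DOX1X and 162 to 419 in PBS. B lineage sums were 86.4 to 240.3 CPM in DOX4X, 76.6 to 117 in DOX1X and 37.9 to 87.3 in PBS, and T and natural killer cell sums were 16.0 to 34.9 CPM in DOX4X, 15.6 to 30.9 in DOX1X and 9.31 to 18.03 in PBS. Mural cell sums were 745 to 1650.1 CPM in DOX4X, 581 to 983 in DOX1X and 658 to 1914 in PBS, and megakaryocyte sums were 69.2 to 433 CPM in DOX4X, 227 to 1327 in DOX1X and 54.6 to 629 in PBS. A score of the neutrophil, monocyte or macrophage, B lineage and erythroid markers was entered in an alternative edgeR fit. With it, the DOX4X against PBS log2 fold changes of Ptn and Lepr were -1.24 and -0.54. In that fit 0 of all genes had an adjusted p under 0.05, against 26 without the score. The part of each blood cell type alone, and of the other cells, was not tested. The title of PBS 4 names doxorubicin, whereas its treatment label and library name are those of the controls, which it was kept with. The column names carry run codes, read here as 2 flow cells. PBS 1 to 4 and DOX1X 1 and 2 share flow cell 1, and DOX1X 3 shares flow cell 2 with DOX4X 1 to 4. DOX4X and PBS thus never share a flow cell, and any value adjusted for flow cell leans on the split of the DOX1X libraries, with DOX1X 3 alone on the second.

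The set covered a wide range of levels. Its 9 genes together took 5.96% to 6.76% of all counts in DOX4X, 5.90% to 7.09% in DOX1X and 6.06% to 6.68% in PBS. Cxcl12 had the highest count of all 17838 genes, with 4.83% to 5.68% of the counts of DOX4X libraries, 4.97% to 5.82% in DOX1X and 4.88% to 5.36% in PBS. Per kilobase of exon (RPKM, mean over 11 libraries, exon lengths of GENCODE M21), Cxcl12 stood at 6398, Lepr at 804, Vcam1 at 362, Csf1 at 199, Kitl at 189.5, Clec11a at 62.5, Il7 at 46.2, Ptn at 18.3 and Il15 at 13.7. The order was the same with the length of the longest transcript. Neighbours overlapped across libraries for Csf1 and Kitl (168 to 230.05 RPKM and 161 to 219.7), for Clec11a and Il7 (43.1 to 74.3 and 32.1 to 54.0), for Il7 and Ptn (10.4 to 38.0) and for Ptn and Il15 (8.62 to 17.5), and the other neighbours did not. Spread between mice of a group was smallest for Kitl (coefficient of variation 8.89%), Clec11a (8.94%) and Cxcl12 (9.09%) and largest for Ptn (31.1%) and Il15 (24.1%). The median coefficient of the 500 genes nearest to Ptn in level was 9.39%.

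**Figure D1:**
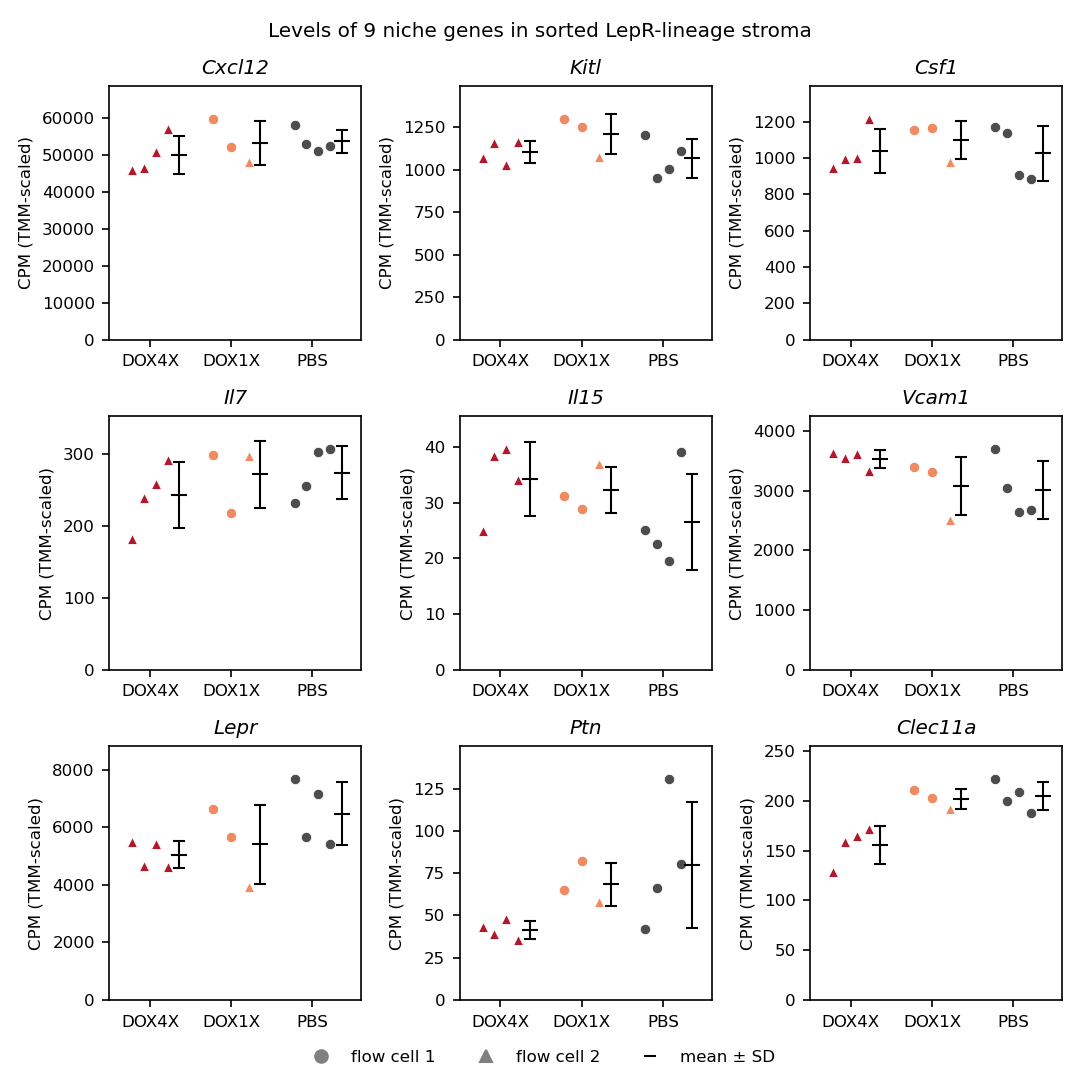
Level of each of the 9 genes in every library, in CPM scaled by TMM factors (linear axes from 0), for DOX4X, DOX1X and PBS. Points are libraries, circles from flow cell 1 and triangles from flow cell 2, and bars are mean ± SD; Clec11a is the gene whose 4 DOX4X libraries (128 to 171 CPM) lie below all 7 others.

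No gene of the set passed the threshold after 4 doses of doxorubicin against PBS. With edgeR's quasi-likelihood test, 0 of 9 genes had an adjusted p under 0.05, where 0.146% of all genes did. DESeq2 called 2 of the 9 (Ptn and Clec11a, both lower) and 3.73% of all genes to which it gave an adjusted p. The test of limma-voom called 0 of the 9 and 0.314% of all genes. At an unadjusted p under 0.05, 3 of 9 genes differed (Clec11a, Ptn and Lepr, all lower in DOX4X), against 13.9% of all genes. The median log2 fold change of the 9 genes was -0.10, against 0.014 over all genes tested. The 4 signals that act most directly on blood cells at high level, Cxcl12, Kitl, Csf1 and Vcam1, had intervals between 0.78-fold and 1.42-fold of PBS. Adjusted for flow cell, Kitl moved to a log2 fold change of 0.29 (SE 0.18), Csf1 to 0.26 (SE 0.23), Vcam1 to 0.65 (SE 0.22), past that range, and Il7 to -0.38 (SE 0.31).

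Clec11a, the osteogenic factor, had the smallest p of the set. It stood at 128, 158, 165 and 171 CPM in DOX4X libraries 1 to 4, at 211, 203 and 191 CPM in DOX1X, and at 221, 199.7, 209 and 188 CPM in PBS. All 4 DOX4X libraries were lower than every DOX1X and PBS library, while DOX1X and PBS overlapped. It was the 1 gene of 9 whose DOX4X and PBS libraries did not overlap, as 7.85% of all genes did not (4.68% with DOX4X lower). The mean was 155.6 ± 19.0 CPM in DOX4X and 205 ± 14.1 CPM in PBS (SD, n = 4 each). The log2 fold change was -0.39 (SE 0.093, 95% interval -0.60 to -0.19, edgeR adjusted p = 0.126), or 0.76-fold. DESeq2 gave -0.40 with an adjusted p of 0.00945. Adjusted for flow cell the value was -0.28 (SE 0.19, edgeR adjusted p = 0.694), and over all other fits it lay between -0.44 and -0.30. Within flow cell 2, the log2 fold change of DOX4X against the single library DOX1X 3 was -0.30, a value with no replicate in DOX1X.

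Ptn, the heparin-binding growth factor, had the largest fold change of the set. Its level was 43.3, 38.9, 47.9 and 35.7 CPM in DOX4X, 64.9, 82.4 and 57.7 CPM in DOX1X, and 41.96, 66.2, 130.4 and 80.6 CPM in PBS. The DOX4X libraries lay close together and below all DOX1X libraries, but PBS 1 lay inside their range and PBS 3 stood far above the other controls. Means were 41.5 ± 5.32 CPM in DOX4X and 79.8 ± 37.3 CPM in PBS (SD, n = 4 each). The log2 fold change was -0.94 (SE 0.27, 95% interval -1.53 to -0.35, edgeR adjusted p = 0.182). It was -0.60 without PBS 3 (edgeR adjusted p = 0.348) and -0.59 adjusted for flow cell (SE 0.54). DESeq2 gave -0.95 with an adjusted p of 0.0212.

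Lepr was lower on average after 4 doses without passing the threshold. It stood at 5494, 4667, 5407 and 4631 CPM in DOX4X, at 6630.4, 5655 and 3939 CPM in DOX1X, and at 7661, 5679.6, 7144 and 5431 CPM in PBS. The lowest value of all 11 libraries was DOX1X 3, the DOX1X library on flow cell 2, and the 2 DOX1X libraries on flow cell 1 lay within the PBS range. The log2 fold change of DOX4X against PBS was -0.36 (SE 0.16, 95% interval -0.72 to -0.0016, edgeR adjusted p = 0.36). Adjusted for flow cell it turned to 0.28 (SE 0.26, edgeR adjusted p = 0.786). Fewer cells expressing Lepr and less Lepr RNA per cell cannot be told apart in bulk RNA, here or for the other genes.

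Vcam1 and Il15 were higher on average after 4 doses without passing the threshold. Vcam1, the adhesion molecule, had 3633, 3549.8, 3609 and 3320 CPM in DOX4X, 3393, 3315 and 2511 CPM in DOX1X, and 3691, 3035, 2634 and 2668 CPM in PBS. PBS 1 was above every DOX4X library, and the other 3 PBS libraries were below them all. Its log2 fold change was 0.23 (SE 0.13, 95% interval -0.048 to 0.51, edgeR adjusted p = 0.452), and 0.65 adjusted for flow cell (SE 0.22, edgeR adjusted p = 0.414). Endothelial cells and macrophages also express Vcam1. The 16 endothelial markers summed to 696 to 1304 CPM in DOX4X, 271 to 504 in DOX1X and 198 to 836 in PBS, and the 13 of 14 monocyte and macrophage markers in the table to 133 to 258 CPM in DOX4X, 104.1 to 240.5 in DOX1X and 79.7 to 149 in PBS. The separate part of these cells in the Vcam1 values was not tested. Il15, the cytokine of natural killer cells, was the least abundant gene of the set per length, with 25.0, 38.5, 39.6 and 34.1 CPM in DOX4X, 31.1, 29.0 and 36.9 CPM in DOX1X, and 25.1, 22.6, 19.5 and 39.1 CPM in PBS. The highest PBS value came from PBS 4, the library whose labels disagree. The Il15 log2 fold change was 0.37 (SE 0.21, 95% interval -0.084 to 0.82, edgeR adjusted p = 0.461). It was 0.61 without PBS 4 (SE 0.16, edgeR adjusted p = 0.14), 0.67 with the blood-cell marker score in the fit and 0.071 adjusted for flow cell (SE 0.42).

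Cxcl12, Kitl, Csf1 and Il7 had overlapping groups in all 3 comparisons. Cxcl12 had 46059, 46437, 50757 and 57087 CPM in DOX4X, 59804, 52225 and 48119.6 CPM in DOX1X, and 58209, 53117, 51113 and 52480.5 CPM in PBS. Its DOX4X libraries 1 to 3 were below every PBS library and DOX4X 4 was within the PBS range. For DOX4X against PBS its log2 fold change was -0.10 (95% interval -0.35 to 0.15), or 0.78-fold to 1.11-fold. Kitl averaged 1106 ± 66.5 CPM in DOX4X (n = 4), 1210.1 ± 117 CPM in DOX1X (n = 3) and 1068 ± 113 CPM in PBS (SD, n = 4), with a DOX4X log2 fold change of 0.050 (95% interval -0.16 to 0.26). Csf1 averaged 1038 ± 120.5 CPM in DOX4X, 1099 ± 105 CPM in DOX1X and 1026 ± 149.8 CPM in PBS, with 0.017 (95% interval -0.24 to 0.28). Il7 averaged 242 ± 45.7 CPM in DOX4X, 271 ± 46.5 CPM in DOX1X and 274 ± 36.6 CPM in PBS, with -0.18 (95% interval -0.51 to 0.16). Equal levels are not shown by these intervals.

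**Figure D2:**
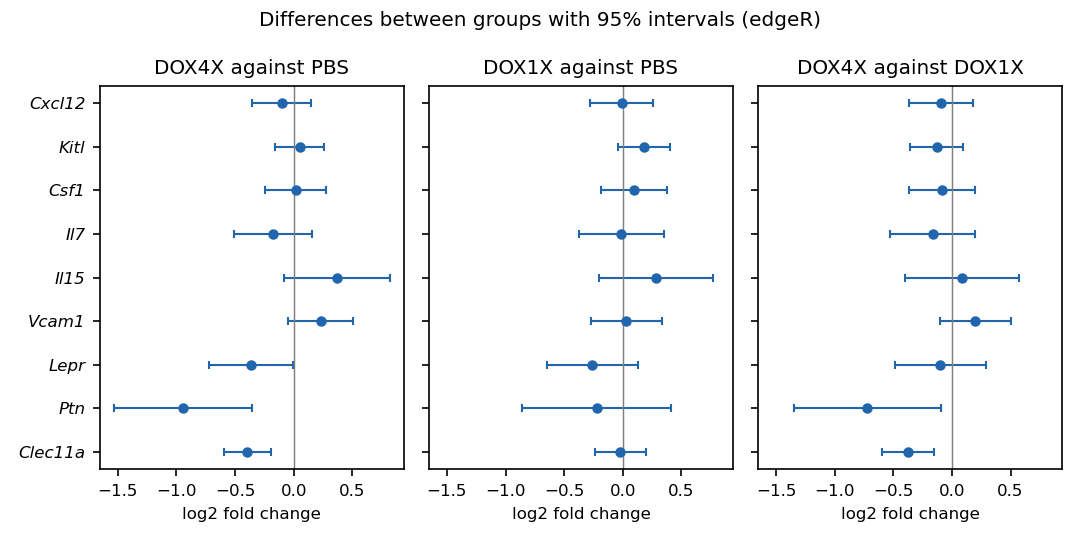
Log2 fold change of each gene (points) with its 95% interval (bars) from edgeR, for DOX4X against PBS, DOX1X against PBS and DOX4X against DOX1X. Intervals of Clec11a and Ptn lie below 0 in both comparisons with DOX4X (Clec11a -0.39 and -0.37), and every interval of DOX1X against PBS crosses 0.

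After a single dose no gene of the set passed the threshold, and all 9 overlapped with the controls. In DOX1X against PBS, 0 of 9 genes passed the threshold with edgeR, DESeq2 or limma-voom, which called 0.00561%, 0.306% and 0.00561% of all genes. None of the 9 had an unadjusted edgeR p under 0.05 (7.16% of all genes did), and for none did the groups separate (7% of all genes, 3.18% with DOX1X higher and 3.82% with it lower). The smallest p was that of Kitl, the ligand of Kit, with a log2 fold change of 0.18 (SE 0.10, 95% interval -0.044 to 0.41, edgeR adjusted p = 0.736), and DOX1X 1 and 2 (1299 and 1253.9 CPM) lay above all PBS libraries (949.7 to 1205 CPM). The other 8 log2 fold changes lay between -0.26 for Lepr and 0.28 for Il15. On flow cell 1 alone, DOX1X 1 and 2 against the 4 PBS libraries, Kitl had 0.25 (SE 0.12), Vcam1 0.15 (SE 0.15), Lepr -0.080 (SE 0.17) and Clec11a 0.015 (SE 0.096), with edgeR adjusted p of at least 0.65 for each of the 9.

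The direct comparison of schedules, DOX4X against DOX1X, gave 0 of 9 genes past the threshold with edgeR (0.00561% of all genes), DESeq2 (0.155%) or limma-voom (0.00561%). It shares its DOX4X libraries with the comparison against PBS. DOX4X and DOX1X differ in number of injections (4 against 1), dose per injection (5 against 10 mg/kg), total dose and, except for DOX1X 3, flow cell. These cannot be told apart here. At an unadjusted edgeR p under 0.05 there were 2 of 9 genes, Clec11a and Ptn, against 4.36% of all genes. The groups of these 2 genes did not overlap (5.98% of all genes, 3.19% with DOX4X higher and 2.79% with it lower). For Clec11a the log2 fold change was -0.37 (SE 0.10, 95% interval -0.59 to -0.16, edgeR adjusted p = 0.886). For Ptn it was -0.72 (SE 0.29, 95% interval -1.35 to -0.092, edgeR adjusted p = 1). Lepr had -0.099 with all libraries but 0.36 within flow cell 2, and Vcam1 had 0.20 with all libraries and 0.49 within flow cell 2. DOX1X 3 is the only DOX1X library there, so these values have no replicate check in DOX1X.

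**Figure D3:**
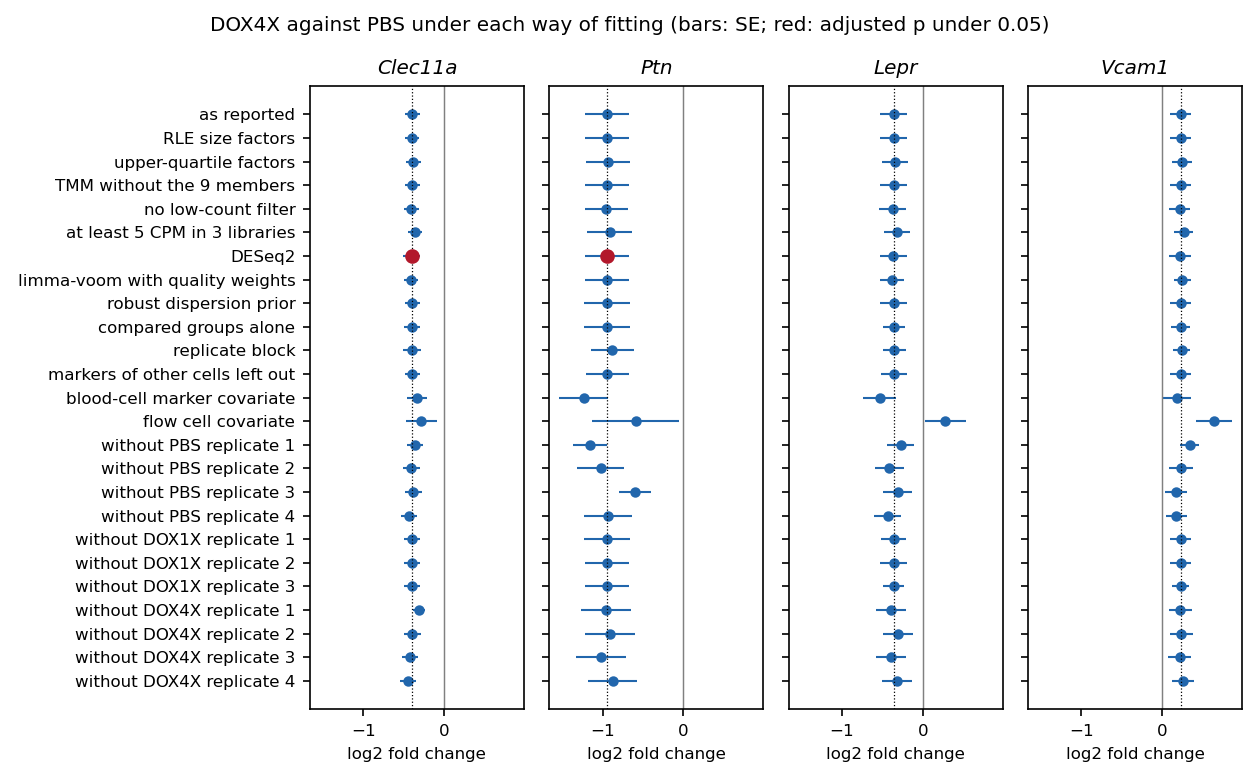
Log2 fold change of DOX4X against PBS (points) with its SE (bars) for Clec11a, Ptn, Lepr and Vcam1, recomputed under each way of fitting, 1 per row; the dotted line is the value as reported. Clec11a and Ptn stay below 0 in every row and pass the threshold with DESeq2 only (red), and Lepr, -0.36 as reported, is 0.28 with flow cell as a covariate.

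Receptors, ligands and processing enzymes of the same pathways were followed as a list of 24 genes, of which 22 were tested. In DOX4X against PBS, 0 rose and 2 fell past the threshold (of all genes 0% rose and 0.146% fell), with a median log2 fold change of -0.0020 over the list. Sdc3, the syndecan that binds Ptn, fell to 293 ± 55.6 CPM in DOX4X, against 520.4 ± 66.1 CPM in PBS (SD, n = 4 each; log2 fold change -0.83, SE 0.13, edgeR adjusted p = 0.0481). It measured 248, 295, 259 and 371 CPM in DOX4X, 349.6, 367 and 392 CPM in DOX1X, and 529, 591, 530.4 and 431 CPM in PBS, and the DOX4X and PBS libraries did not overlap. Mmp9, a gelatinase that releases soluble Kitl, fell to 20.01 ± 2.31 CPM in DOX4X, against 75.5 ± 33.1 CPM in PBS (-1.92, SE 0.27, edgeR adjusted p = 0.0428). Its libraries held 22.1, 21.8, 17.5 and 18.6 CPM in DOX4X, 36.6, 35.96 and 21.4 CPM in DOX1X, and 124, 65.9, 63.9 and 48.5 CPM in PBS. Adjusted for flow cell, Sdc3 had -0.96 (edgeR adjusted p = 0.317) and Mmp9 -1.16 (edgeR adjusted p = 0.463), so neither call held. With the blood-cell marker score in the fit, 0 of all genes passed, so both calls were lost there too. Each call was also lost for 8 of the 11 libraries left out in turn (log2 fold change -0.96 to -0.75 for Sdc3 and -2.08 to -1.57 for Mmp9, adjusted p up to 0.151 and 0.143). They were kept without PBS 4 or DOX1X 3, for Sdc3 also without DOX4X 4, and for Mmp9 also without PBS 1.

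Downstream of Lepr, the signal transducer Stat3 had a DOX4X against PBS difference of -0.36 in log2 units (SE 0.11, edgeR adjusted p = 0.186). The feedback inhibitor Socs3 had -0.54 (SE 0.15, edgeR adjusted p = 0.18). Stat3 averaged 343 CPM in DOX4X, 351 in DOX1X and 441 in PBS. After a single dose Stat3 had -0.33 (SE 0.12, edgeR adjusted p = 0.615), whereas Socs3 had 0.10 (SE 0.17, edgeR adjusted p = 0.902). Socs3 measured 350.2, 471, 407 and 459 CPM in DOX4X, 775, 625 and 573 CPM in DOX1X, and 504, 508, 687 and 754 CPM in PBS. The DOX4X libraries were below all others, and DESeq2 called Socs3 (adjusted p = 0.0349), while adjusted for flow cell it had -0.25. Receptors borne mainly by blood cells were scarce: Cxcr4 lay between 4.47 and 15.1 CPM over all libraries, Csf1r between 1.87 and 17.2, and Il7r between 1.55 and 12.5. Their DOX4X against PBS log2 fold changes were 0.59 (SE 0.35), 0.62 (SE 0.54) and 1.20 (SE 0.39, edgeR adjusted p = 0.224). Il7r averaged 7.21 CPM in DOX4X, 4.52 in DOX1X and 3.14 in PBS. Dpp4, also on the list, had 0.87 (SE 0.29, edgeR adjusted p = 0.231). Of the list's 22 tested genes, 11 had a log2 fold change above 0 and 11 below 0. Kit was detected at 81.2 to 160.4 CPM, with means of 111 CPM in DOX4X, 99.5 in DOX1X and 144 in PBS. Its log2 fold change against PBS was -0.37 for DOX4X (SE 0.14, edgeR adjusted p = 0.28). For DOX1X against PBS it was -0.54 (SE 0.15, edgeR adjusted p = 0.58). Ptprz1, the receptor phosphatase for Ptn, averaged 19.9 CPM in DOX4X, 18.1 in DOX1X and 31.1 in PBS, and Itga11, the Clec11a receptor subunit, averaged 131.3 CPM in DOX4X, 169 in DOX1X and 166 in PBS. Itgb1, the partner of Itga11, averaged 1158 CPM in DOX4X, 1276 in DOX1X and 1434 in PBS. Its DOX4X against PBS log2 fold change was -0.31 (SE 0.097, edgeR adjusted p = 0.207). Those groups did not overlap, as for 7.85% of all genes. Lep and Alk were not analysed here.

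Among 30 other niche factors, of which 28 were tested, 0 rose and 1 fell after 4 doses (0.146% of all genes fell), with a median log2 fold change of -0.053. Spp1 (osteopontin, a matrix protein that restrains stem cell number) fell to 2662 ± 713 CPM in DOX4X, against 7971 ± 1736 CPM in PBS (-1.58, SE 0.21, edgeR adjusted p = 0.0374). Adjusted for flow cell it was -1.63 (edgeR adjusted p = 0.277), and the call was lost for 8 of the 11 libraries left out in turn (-1.72 to -1.41, adjusted p up to 0.143), all but PBS 4, DOX1X 3 and DOX4X 4. With the blood-cell marker score in the fit, Spp1 had -1.82 and was not called. Tgfb3, a transforming growth factor, had -1.26 (SE 0.32, edgeR adjusted p = 0.14). It measured 159, 172, 138 and 228 CPM in DOX4X, 155, 117 and 349 CPM in DOX1X, and 303, 336, 569.7 and 456 CPM in PBS. The DOX4X libraries were below every PBS library, and DOX1X 3 was the only DOX1X library within the PBS range. Its difference passed with DESeq2 (adjusted p = 0.00359) and without DOX1X 3 (edgeR adjusted p = 0.0486), and was -2.61 adjusted for flow cell (edgeR adjusted p = 0.0954). Tgfb2 had -0.49 (SE 0.16, edgeR adjusted p = 0.228), and -1.02 adjusted for flow cell. Bmp4, a bone morphogenetic protein, had 0.63 (SE 0.18, edgeR adjusted p = 0.175), which passed with DESeq2 (adjusted p = 0.0309). Angpt1, which keeps stem cells quiescent through the receptor Tek, averaged 206 CPM in DOX4X and in DOX1X and 215 CPM in PBS. Csf2 did not exceed 0.196 CPM and was not tested, and Csf3 was not analysed here. After a single dose 0 genes of either list passed with edgeR (0.00561% of all genes did), with Sdc3 at -0.49 (SE 0.14), Mmp9 at -1.27 (SE 0.29) and Spp1 at -0.99 (SE 0.23).

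**Figure D4:**
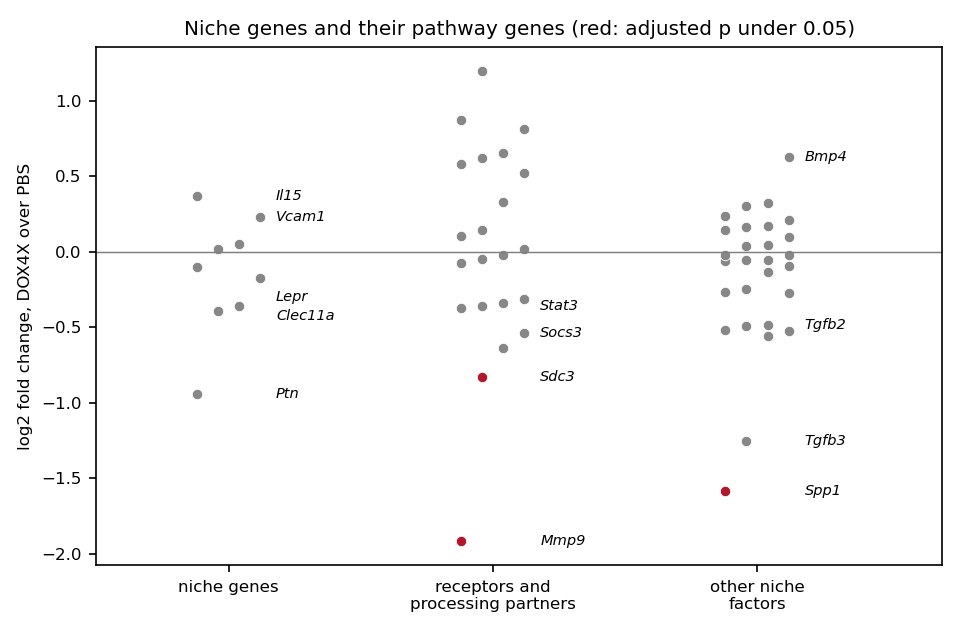
Log2 fold change of DOX4X over PBS for the 9 niche genes, the 22 tested receptors and processing partners and the 28 tested other niche factors, 1 point per gene. Red points passed an edgeR adjusted p under 0.05 (Mmp9, Sdc3 and Spp1); the niche genes span -0.94 for Ptn to 0.37 for Il15.

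Genes whose pattern over the 11 libraries was among the most like that of each niche gene were taken by Pearson correlation of log2 CPM among 10730 genes of at least 5 CPM on average. These values describe libraries that share depth, group and flow cell, and carry no test. Cxcl12 was followed by Idh1 (0.95), Gpr176 (0.92) and Tnfrsf19 (0.92), Kitl by Ift22 (0.87), Tmem50b (0.86) and Synm (0.85), and Csf1 by Agt (0.90) and Tmem138 (0.90). For the lymphoid cytokines these were Tspan17 (0.96), Stk25 (0.93) and Tln2 (0.92) with Il7, and Mrps6 (0.94), Med11 (0.92) and Osgep (0.90) with Il15. Vcam1 went with Atoh8 (0.92) and Abcd2 (0.91), and Lepr with Tmem255a (0.93), Olfml1 (0.92) and Ikbkg (0.92). Ptn went with Cntn1 (0.89), Lin52 (0.88) and AI987944 (0.87), and Clec11a with Gpr27 (0.94), Eri3 (0.93) and Mprip (0.93). No gene was named for more than 1 of the 9.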

How the data were processed

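The authors deposited raw whole-number read counts for every gene of 11 libraries made with the SMART-Seq v4 Plus kit from poly(A) RNA, which does not mark strand. STAR 2.7.9a, featureCounts 2.0.1, Trim Galore 0.6.6, SAMtools 1.17, MultiQC 1.7 and FastQC 0.11.5 are named in the submitters' processing notes, with build GRCm39. Not given in the sources used here are the gene annotation, how strand was set and how multiply mapped reads were handled. Reads of transcript isoforms, such as the membrane-bound and soluble forms of Kitl, are summed.

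Genes were kept by filterByExpr of edgeR 4.0.16 (R 4.3.3) and libraries scaled by TMM factors; the genes tested held at least 99.9% of each library's counts. All 11 libraries were fitted together by group, and each pair of groups was compared by the two-sided quasi-likelihood F test of edgeR, p-values adjusted by Benjamini-Hochberg over 17838 genes, threshold 0.05. SE is the log2 fold change divided by the root of F, and 95% intervals follow from it. Called and non-overlapping counts are set beside the share of all genes. Lengths for RPKM are exon unions of GENCODE M21 on GRCm38, not the counting annotation, and serve only to order genes by level. The blood-cell marker score is the mean log2 CPM (prior count 2) of the erythroid, B lineage, neutrophil and monocyte or macrophage markers. Il7r and Csf1r are also in those lists.

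The 9 genes and all lists were chosen with earlier results of these data known. Named are all 9 genes, every list gene past the threshold, the 4 genes of each list with the smallest p in DOX4X against PBS (mean of at least 1 CPM) and the 3 genes most like each niche gene, without immunoglobulin or T cell receptor segments and Gm or Rik clone names (some of these genes are not reported here); other list genes were chosen after their values were seen. The labels give separate mice per library, and no pair of libraries of a group agreed within sampling noise. Alternatives were other scaling, low-count filters, DESeq2 1.42.0, limma-voom (limma 3.58.1), fits of the compared groups alone, covariates and each library left out. The procedure was tested on simulated data.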

Additional observations from a re-analysis of the deposited data

How the results depend on the processing

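The count of niche genes past the threshold was 0 in each of the 3 comparisons under every alternative run, except DOX4X against PBS with DESeq2 (2, Ptn and Clec11a). Over all genes, the number called in DOX4X against PBS (26) was 562 with DESeq2, 56 with limma-voom, 1 with the compared groups alone, 10 with the replicate block, 0 with the blood-cell marker covariate (edgeR, 2047 genes at an unadjusted p under 0.05), 6 with the flow cell covariate, 64 at an adjusted p under 0.10, and 0 to 80 with a library left out (80 without PBS 4, 47 without DOX1X 3 and at most 7 without any other). In DOX1X against PBS (1) it was 52 with DESeq2, 6 with the replicate block, 5 within flow cell 1 and 1 to 2 with a library left out. In DOX4X against DOX1X (1) it was 30 with DESeq2, 2 with the replicate block and 1 to 2 with a library left out. Fits within a flow cell could not be made for DOX4X against PBS. Same-numbered mice share only a number: the correlations of their deviations ran from -0.12 to 0.35.

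Of 666 recomputed log2 fold changes of the 9 genes, 617 kept their direction and side of the threshold, 2 newly passed and 47 changed sign. DOX4X against PBS turned to 0.12 for Cxcl12 and 0.28 for Lepr with the flow cell covariate; with a library left out Kitl ran from -0.0016 to 0.11 and Csf1 from -0.067 to 0.082. In DOX1X against PBS, Cxcl12 turned to 0.018 with at least 5 CPM in 3 libraries, 0.055 with limma-voom, 0.014 with the replicate block, 0.028 with the marker covariate, 0.060 with the flow cell covariate and 0.057 within flow cell 1. Il7 turned to 0.013 with the stricter filter, 0.069 with the replicate block and 0.094 with the marker covariate. Clec11a turned to 0.0088 with the stricter filter, 0.00070 with limma-voom, 0.046 with the marker covariate, 0.017 with the flow cell covariate and 0.015 within flow cell 1. Vcam1 turned to -0.0092 with the replicate block and -0.022 with the marker covariate. With a library left out, Cxcl12 ran from -0.10 to 0.060, Il7 from -0.092 to 0.12, Vcam1 from -0.047 to 0.16, Ptn from -0.44 to 0.12 and Clec11a from -0.057 to 0.017. In DOX4X against DOX1X, the flow cell covariate gave 0.058 for Cxcl12, 0.037 for Kitl, 0.087 for Csf1, -0.11 for Il15 and 0.36 for Lepr, and the fit within flow cell 2 gave 0.060, 0.039, 0.089, -0.11 and 0.36 for the same genes. Il15 had -0.018 with the replicate block, and Lepr ran from -0.28 to 0.073 with a library left out. The cause was not tested.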

Other observations

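Between the mice of a group, Ptn, Il15 and Il7 varied more than most genes of like level. Among the 500 genes nearest in level, 97.6% had a lower coefficient of variation than Ptn, 90.6% than Il15 and 85.8% than Il7. The shares were 83.6% for Lepr, 36.4% for Kitl, 37.4% for Cxcl12 and 45.4% for Clec11a. By CPM, Cxcl12 ranked 1, Lepr 9 and Kitl 76 of 17838 genes. Most of the 500 genes nearest to Cxcl12, Lepr or Kitl therefore lay lower, so their shares do not compare genes of like level. From the lowest to the highest library, Ptn differed 3.65-fold, Il15 2.03-fold and Lepr 1.95-fold, and Cxcl12 1.30-fold. Dixon's test at the 95% level was run for each of the 9 genes in DOX4X and in PBS, 18 tests with 4 mice each. No DOX4X or PBS library stood apart from its group. With so few mice, this does not show that the libraries were alike. DOX1X (n = 3) was not tested in this way. The osteoblast markers (11 of 12 in the table, Spp1 among them) summed to 9657 to 12173 CPM in DOX4X, 12758 to 16601 CPM in DOX1X and 14296 to 22756 CPM in PBS, with no overlap between DOX4X and PBS. Without Spp1 the other 10 summed to 6983 to 9031 CPM in DOX4X, 8669.8 to 12639.9 CPM in DOX1X and 8655 to 14697 CPM in PBS, and DOX4X and PBS overlapped.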
